A study of Mus musculus with 5 samples.

Results

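The replacement histone genes H2afj, H2afz, H2afx, H2afy, H2afv, H3f3a, H3f3b and H1f0 were followed in single cells from mouse hearts. They are 8 of the 31053 genes in the deposited count tables and were taken by their symbols. The set was put together because H2afj was nearly absent from the 3 disease libraries, so all differences of the 8 genes between disease and control are given as a description, with no test. Every heart came from a mouse without Pdcd1 (Pdcd1-/-), the gene of the inhibitory receptor PD-1, per the series' design text. The control group (Ctla4+/+ Pdcd1-/-) held 4 mice and gave 2 libraries, called control replicates 1 and 2. The disease group (Ctla4+/- Pdcd1-/-) held 10 mice and gave 3 libraries, called disease replicates 3, 4 and 5, and served as a model of the myocarditis that immune checkpoint inhibitors can cause. The labels of single samples write the Pdcd gene and the sorting dye with a number that climbs from sample to sample, whereas the design text gives Pdcd1 and DRAQ5 throughout, and the design text was followed. Digested hearts were pooled and sorted for DRAQ5-positive, DAPI-negative cells, that is, nucleated cells with an intact membrane, and libraries were made with the 10x Genomics 5-prime chemistry, which reads transcripts from their 5-prime end. Which mice went into which library, and the age of the mice, are not given in the sources used here, so p-values measure only the spread between libraries.

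After filtering, 35838 of 47319 barcodes remained, with 5338 to 9158 cells per library and a median of 3319 to 4460 UMIs (unique molecules counted) per cell. Cells were put into lineages by the UMIs of fixed marker genes. Of these, 6 lineages had at least 50 cells in each library: 12751 endothelial cells, 10499 fibroblasts, 4551 monocytes or macrophages, 3526 T cells, 996 B cells and 429 mural cells. The mural gate also held 1590 to 2092 CPM (counts per 1000000 UMIs) summed over 7 endothelial markers, against 7031 to 7741 CPM in the endothelial gate, so its values are those of a mixed gate. Disease replicate 4 stood apart in its makeup: T cells were 24.4% of its kept cells, against at most 7.74% in the other libraries. Pairs of libraries shared 46 to 88 cell barcodes, 0.862 to 1.44% of the smaller library.

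Most histone protein is made during DNA replication from clustered genes whose mRNAs end in a stem-loop and carry no poly(A) tail. Replacement histones are encoded elsewhere in the genome, mostly by polyadenylated mRNAs, and are made in all phases of the cell cycle, so they supply new histone to the chromatin of cells that no longer divide, the state of most cells of the adult heart. The H2A.Z proteins (H2afz and H2afv) sit around active promoters, H2A.X (H2afx) is phosphorylated next to DNA breaks and its gene gives both kinds of mRNA, macroH2A1 (H2afy) is enriched in silent chromatin, and the genes H3f3a and H3f3b both encode the replacement form of histone H3, which is deposited at active genes. H1f0 encodes a linker histone that builds up in differentiated cells, and H2afj encodes an H2A form that accumulates in senescent cells with lasting DNA damage.

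The 8 genes lie apart from each other in the genome, on assembly GRCm38 as annotated by GENCODE release M21. H2afj (ENSMUSG00000060032) is at chr6:136808244-136810074 on the plus strand, H2afz (ENSMUSG00000037894) at chr3:137864487-137866922 plus, H2afx (ENSMUSG00000049932) at chr9:44334694-44336077 plus, and H1f0 (ENSMUSG00000096210) at chr15:79028450-79030504 plus. H2afy (ENSMUSG00000015937) is at chr13:56073619-56136361 on the minus strand, H2afv (ENSMUSG00000041126) at chr11:6427229-6444443 minus, H3f3a (ENSMUSG00000060743) at chr1:180800832-180813943 minus and H3f3b (ENSMUSG00000016559) at chr11:116021912-116027962 minus. Antisense genes with rows of their own in the count tables overlap H2afy (Gm47071), H3f3a (Gm17275 and H3f3aos) and H1f0 (Gm49544).

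Of the members, 6 form 3 pairs of closely related coding sequences, and the start of each coding sequence is printed to show how far a 5-prime read can tell the partners apart. Each line gives the first 60 coding bases of the gene's GENCODE transcript, with the bases that differ from the partner in capitals.
H3f3a: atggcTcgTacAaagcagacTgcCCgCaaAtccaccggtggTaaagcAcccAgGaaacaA
H3f3b: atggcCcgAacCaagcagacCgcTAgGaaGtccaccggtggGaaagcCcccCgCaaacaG
H2afz: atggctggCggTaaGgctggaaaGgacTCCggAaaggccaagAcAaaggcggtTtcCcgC
H2afv: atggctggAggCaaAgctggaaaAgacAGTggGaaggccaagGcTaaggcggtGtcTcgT
H2afj: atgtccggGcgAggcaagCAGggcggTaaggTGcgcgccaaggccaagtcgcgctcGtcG
H2afx: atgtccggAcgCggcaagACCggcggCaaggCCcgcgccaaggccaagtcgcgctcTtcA
Over the whole coding sequence, 316 of 411 bases (76.9%) are the same in H3f3a and H3f3b, 306 of 387 (79.1%) in H2afz and H2afv, and 351 of 389 aligned bases (90.2%) in H2afj and H2afx. In the first 60 bases, 13 bases differ in the first pair, 13 in the second and 10 in the third, so a read of that length separates the members of each pair. The transcripts of some members do share stretches with other genes: of all 50-base words in the first 300 transcript bases, 26.3% for H3f3a, 17.9% for H2afz and 1.20% for H2afx also occur in a transcript of another gene, and none for the other 5 members. Counts of H3f3a and H2afz are therefore uncertain where reads could be shared with such copies.

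Promoters are printed for H2afj, H2afv and H1f0, which were low in the disease libraries, and for H2afz, the partner of H2afv, which was not. RefSeq promoters (assembly GRCm38.p6) were found for 7 of the 8 members, H2afx being without an entry. Each line holds the 250 bases before the RefSeq start on the gene's own strand, with matches to the CCAAT box (CCAAT, or ATTGG on the other strand) in capitals.
H2afj chr6:136807998-136808247 plus: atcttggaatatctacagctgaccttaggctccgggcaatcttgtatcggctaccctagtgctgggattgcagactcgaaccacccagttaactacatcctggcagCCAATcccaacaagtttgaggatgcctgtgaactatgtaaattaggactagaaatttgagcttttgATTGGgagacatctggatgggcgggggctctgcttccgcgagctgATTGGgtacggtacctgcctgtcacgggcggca
H2afv chr11:6444444-6444693 minus: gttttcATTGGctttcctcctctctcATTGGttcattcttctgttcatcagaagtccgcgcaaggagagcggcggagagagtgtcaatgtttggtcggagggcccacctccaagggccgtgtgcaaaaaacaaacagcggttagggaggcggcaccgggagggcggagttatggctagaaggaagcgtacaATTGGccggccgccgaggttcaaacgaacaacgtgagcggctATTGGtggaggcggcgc
H1f0 chr15:79027962-79028211 plus: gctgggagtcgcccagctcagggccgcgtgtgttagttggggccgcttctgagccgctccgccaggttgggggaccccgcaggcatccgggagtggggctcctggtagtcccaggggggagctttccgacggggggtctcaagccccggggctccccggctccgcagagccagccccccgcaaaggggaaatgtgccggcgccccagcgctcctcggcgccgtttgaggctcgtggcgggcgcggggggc
H2afz chr3:137864237-137864486 plus: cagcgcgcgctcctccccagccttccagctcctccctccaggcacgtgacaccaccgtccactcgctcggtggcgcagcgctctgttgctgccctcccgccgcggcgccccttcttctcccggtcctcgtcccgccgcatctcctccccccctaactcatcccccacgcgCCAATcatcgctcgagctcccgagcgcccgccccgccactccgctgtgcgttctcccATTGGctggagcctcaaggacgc
H2afj had 3 matches, H2afv 4, H2afz 2 and H1f0 none. The H1f0 window ended at position 79028211, whereas the GENCODE start of H1f0 is at 79028450, and the bases between them were not searched. Of the members not printed, H3f3b had 4, H3f3a 1 and H2afy 0. At least 1 match was present in 34.5% of all 27025 promoters of that length, so the box was found both in members that were low and in members that were not. The GC box (GGGCGG, or CCGCCC on the other strand), in 32.9% of all promoters, matched in 5 of the 7 members and not in H3f3b or H1f0.

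In all kept cells together, H2afj, H2afv, H2afx and H1f0 were lower in every disease library than in both control libraries, and H2afz, H2afy, H3f3a and H3f3b were not. Control replicates 1 and 2 held 142 and 123 CPM of H2afj, whereas disease replicates 3, 4 and 5 held 4.26, 1.93 and 3.91 CPM. Its disease mean was 3.37 ± 1.25 CPM (SD, n = 3) and its control mean 132 ± 13.1 CPM (SD, n = 2), which puts the disease level at 2.54% of the control level. The fitted log2 fold change of the disease over the control group (here the log2 change) was -5.29 (SE 0.34), and between -5.48 and -5.07 under every alternative setting tried, including those without 1 library.

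The H2A.Z genes went separate ways. H2afv was at 157 and 175 CPM in control hearts, against 16.7, 12.7 and 15.6 CPM in disease hearts, 9.05% of the control mean (log2 change -3.43, SE 0.14). Its partner H2afz was at 745 and 559 CPM in control hearts, against 679, 838 and 865 CPM in disease hearts, and the groups overlapped (log2 change 0.33, SE 0.25). The ratio of H2afz to H2afv UMIs was accordingly 4.76 and 3.19 for the control libraries, and for the disease libraries it was 40.5, 65.9 and 55.4.

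H2afx was at 37.7 and 42.1 CPM in control hearts, against 13.7, 3.25 and 12.0 CPM in disease hearts (log2 change -2.05, SE 0.54). Disease replicate 4 was the lowest, at 25.3% of the mean of disease replicates 3 and 5. H2afy was at 39.8 and 73.0 CPM in the controls, which were far apart, and the 3 disease libraries, at 40.4, 54.0 and 46.9 CPM, lay between them. Its log2 change of -0.19 (SE 0.31) became 0.26 without control replicate 2, so no direction can be given for H2afy.

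The genes of the replacement form of histone H3 showed no common shift. H3f3b was at 2428 and 2336 CPM in control hearts, against 2280, 2884 and 2489 CPM in disease hearts (log2 change 0.15, SE 0.23). H3f3a was at 974 and 938 CPM in control hearts, against 1114, 514 and 1133 CPM in disease hearts (log2 change -0.04, SE 0.33). Disease replicates 3 and 5 were above both controls, and disease replicate 4 was at 45.7% of their mean. The linker histone gene H1f0 was at 137 and 202 CPM in control hearts, against 49.8, 25.7 and 44.8 CPM in disease hearts, 23.7% of the control mean (log2 change -2.05, SE 0.29).

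**Figure D1:**
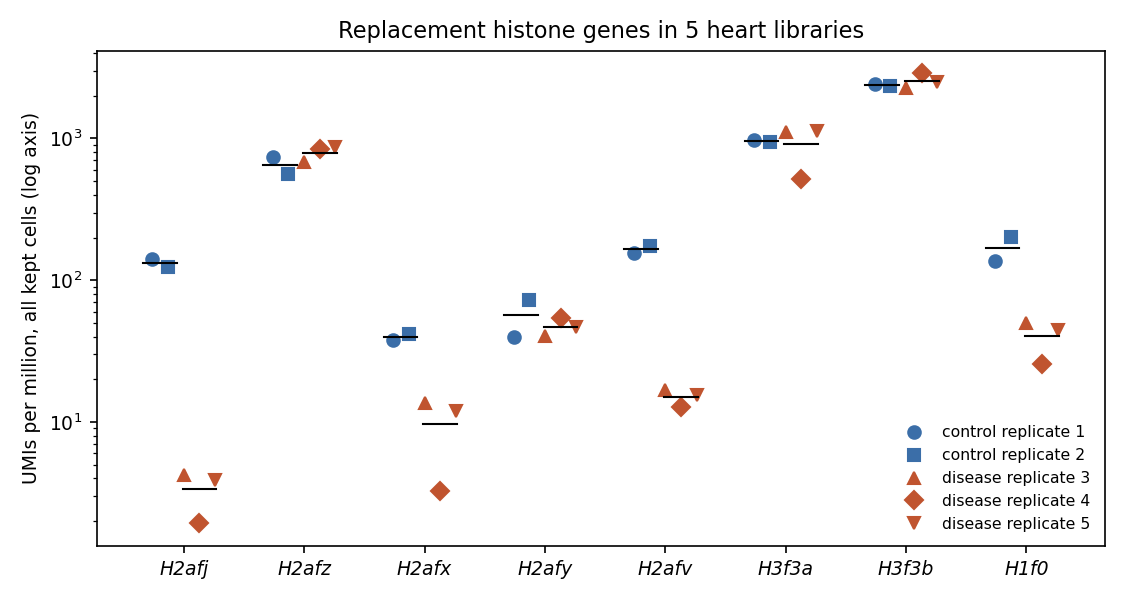
Level of each of the 8 genes in all kept cells of each library, in CPM on a log axis. Points are libraries (blue, control; orange, disease) and black lines are group means. H2afj, H2afv, H2afx and H1f0 have all 3 disease points under both control points, and disease replicate 4 is the lowest point of H2afx and H3f3a.

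These positions must be read against a shift of many genes. Over all 16025 genes tested in all cells, 6.52% were called lower in disease by the edgeR quasi-likelihood test and 0.0374% higher. All disease libraries lay below all control libraries in 21.7% of the genes tested, and in 4 of the 8 members. Because the members were chosen on this contrast, nothing is read from these shares. The labels name no batch or date, so the genotype and how the libraries were made cannot be told apart.

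The same 4 genes were low within the lineages. The makeup of each lineage in subtypes was not measured, and its part in these values was not tested. H2afj did not overlap between groups in 6 of 6 lineages, H2afv in 6, H2afx in 6 and H1f0 in 5, always with disease below control. The 5 for H1f0 include B cells, which held only 9 control and 5 disease UMIs of it. Among all genes tested, each disease library lay below each control library in 24% in endothelial cells, 25.1% in fibroblasts, 20.5% in the mural gate, 23.1% in monocytes or macrophages, 19.7% in T cells and 25.5% in B cells. In endothelial cells, which line the vessels, H2afj was at 120 and 117 CPM in control hearts, against 4.83, 4.43 and 5.11 CPM in disease hearts (log2 change -4.68, SE 0.11). In fibroblasts, which make the heart's matrix, it was at 118 and 110 CPM against 3.28, 1.39 and 3.55 CPM (-5.42, SE 0.36). Monocytes and macrophages had 181 and 166 CPM in control hearts, against 6.74, 2.53 and 3.72 CPM in disease hearts (-5.33, SE 0.34).

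T cells had the highest H2afj level of the controls, 251 and 216 CPM, and 1.85, 0.996 and 2.75 CPM in the disease libraries (-7.17, SE 0.48). These disease values rest on 1, 10 and 8 UMIs. In B cells H2afj had 52 and 94 UMIs in the controls (150 and 140 CPM) and 1, 1 and 0 UMIs in the disease libraries. In the mural gate it had 57 and 38 UMIs in the controls (90.6 and 80.7 CPM) and 0, 0 and 2 UMIs in the disease libraries, too few for a fold change in either lineage. As a share of the control mean, the disease mean of H2afj lay between 0.798% (T cells) and 4.04% (endothelial cells). Whether this drop differed between lineages was not tested.

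H2afv, which encodes the other H2A.Z form, was also low in each lineage, with disease means between 7.09 and 12.9% of the control means. Endothelial cells had 189 and 207 CPM of H2afv in control hearts, against 18.3, 17.3 and 18.6 CPM in disease hearts (log2 change -3.52, SE 0.10). Fibroblasts had 157 and 166 CPM against 16.0, 10.9 and 14.0 CPM (-3.60, SE 0.18), and T cells 293 and 188 CPM against 38.8, 21.9 and 25.1 CPM (-3.13, SE 0.39). H2afz, by contrast, had disease means between 97.1 and 113% of the control means in the 6 lineages, and its groups overlapped in all of them. Its disease replicate 4 was the lowest disease library in each lineage, at 64.3 to 88.0% of the mean of disease replicates 3 and 5. In endothelial cells, monocytes or macrophages, T cells and B cells, disease replicates 3 and 5 were above both controls, so the overlap there came from disease replicate 4.

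H2afx had disease means between 21.2 and 27.6% of control. T cells had 106 and 119 CPM of H2afx in control hearts, against 46.2, 5.98 and 33.0 CPM in disease hearts, and B cells had 127 and 143 CPM against 59.7, 7.69 and 44.3 CPM. Disease replicate 4 was the lowest in each lineage, at 14.8 to 25.2% of the mean of the other 2 disease libraries in the 5 lineages where it had a UMI, with 0 UMIs in the mural gate. H3f3a showed the same library apart: its disease replicate 4 was at 36.1 to 46.0% of the mean of disease replicates 3 and 5 in the 6 lineages. In T cells, for example, H3f3a was at 1024 and 1282 CPM in the controls, at 1317 and 1167 CPM in disease replicates 3 and 5, and at 488 CPM in disease replicate 4. As a share of the mean of disease replicates 3 and 5, disease replicate 4 was also at 47.4% for H2afj and 54.4% for H1f0 in all cells, and for H2afj it was at 89.1% in endothelial cells, 40.6% in fibroblasts, 48.4% in monocytes or macrophages and 43.4% in T cells. For H1f0 it was at 94.8% in endothelial cells, 99.1% in fibroblasts, 73.1% in monocytes or macrophages and 59.3% in the mural gate. In T cells, where few H1f0 UMIs were counted, it was at 110.5%. In B cells it was at 24.8%, on 1 UMI in that library. The part of the T cell share of disease replicate 4 in its value over all cells was not tested. For H2afx, disease replicates 3 and 5 alone were also below both controls in all 6 lineages.

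H1f0 was low in disease in the lineages where it was most abundant. Endothelial cells had 275 and 320 CPM in control hearts, against 83.3, 81.4 and 88.3 CPM in disease hearts (log2 change -1.88, SE 0.11). Fibroblasts had 128 and 159 CPM against 39.1, 37.7 and 37.0 CPM (-1.96, SE 0.12). The mural gate had 189 and 206 CPM against 68.4, 40.7 and 68.7 CPM, and macrophages and monocytes had 49.8 and 68.9 CPM against 17.6, 10.7 and 11.6 CPM. In T cells the level was near the limit of counting, with 28 and 0 UMIs against 1, 35 and 13 UMIs, and the groups overlapped.

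**Figure D2:**
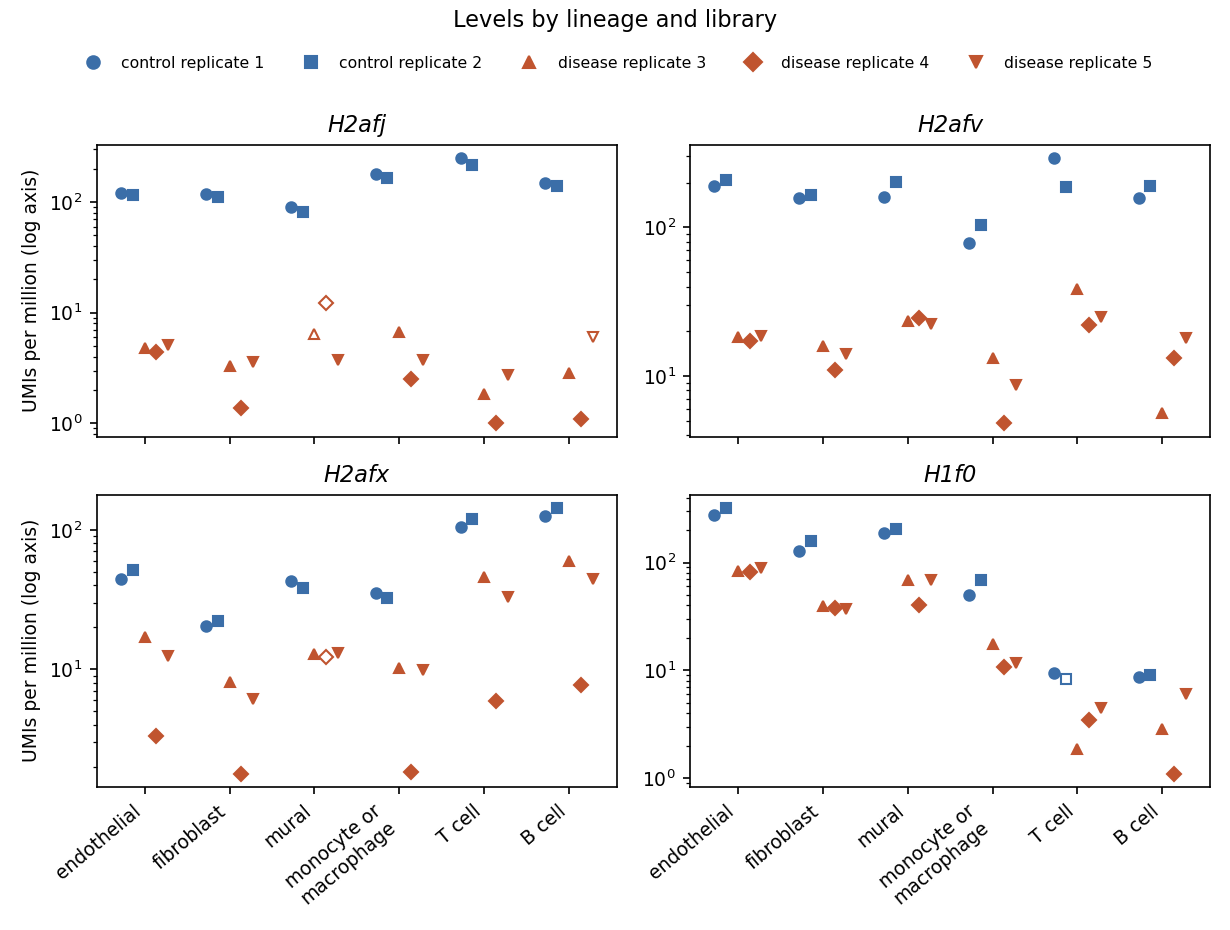
Levels of H2afj, H2afv, H2afx and H1f0 in each lineage and library, in CPM on a log axis (blue, control; orange, disease). Open symbols mark libraries with 0 UMIs, drawn at the level that 3 UMIs would give. Disease points lie under control points in every lineage for H2afj, H2afv and H2afx, and H1f0 runs from the highest levels in endothelial cells to the lowest in T and B cells.

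H2afy and H3f3b gave no common order of the groups. H2afy had disease means between 56.3 and 86.6% of control, but its groups overlapped in all 6 lineages, with control replicate 1 close to the disease libraries and control replicate 2 above them (in fibroblasts 30.2 and 60.9 CPM in the controls, and 31.6, 34.2 and 34.8 CPM in disease). H3f3b had disease means between 94.0 and 124% of control. Its groups did not overlap in 2 lineages and in opposite directions: it was higher in disease in T cells (3456 and 2922 CPM against 3811, 3987 and 4026 CPM) and lower in fibroblasts (1943 and 1981 CPM against 1820, 1804 and 1909 CPM). The groups did not overlap in 32.5% of all genes tested in T cells and in 50.2% in fibroblasts.

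The share of genes that were called lower in disease was 12.1% in endothelial cells, 12.6% in fibroblasts, 7.84% in the mural gate, 6.7% in monocytes or macrophages, 5.19% in T cells and 8.41% in B cells.

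H2afj was scattered over many control cells and few disease cells. With each cell thinned to 1000 UMIs, an H2afj UMI was present in 11.8% of control replicate 1 cells (95% Wilson interval 11.1 to 12.5%) and in 10.7% of control replicate 2 cells (9.88 to 11.6%). The same share was 0.412% (0.272 to 0.623%), 0.212% (0.134 to 0.335%) and 0.422% (0.294 to 0.606%) in disease replicates 3, 4 and 5. Cells under 1000 UMIs were left out, 215 and 430 from the controls plus 206, 682 and 346 from the disease libraries. Without thinning the shares were 41.9 and 33.4% of control cells, against 1.88, 0.906 and 1.73% of disease cells. Control T cells had the highest thinned shares of the 6 lineages, 20.2% (17.0 to 23.9%) and 23.8% (15.8 to 34.1%), and the intervals cover counting error only. No lineage is known to lack H2afj and no barcode had under 500 UMIs, so the level that free RNA gives was not measured.

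The remaining H2afj signal of the disease libraries was thin and spread out. It came to 319 UMIs in 312 of 21917 cells, that is, nearly always 1 UMI per cell. Of these 312 cells, 5 (1.60%) had a barcode that also occurred among kept control cells, and 404 (1.84%) of all 21917 disease cells had one.

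The genes next to H2afj on the chromosome were not called. On the side of its start lie Plbd1, Gucy2c and Hist4h4, a replication-dependent H4 gene, and beyond its end lie Wbp11, BC049715 and Smco3. Hist4h4, the nearest on one side, was at 29.6 and 39.6 CPM in control hearts, against 41.8, 21.5 and 30.5 CPM in disease hearts, and the groups overlapped. Wbp11, a splicing factor gene and the nearest on the other side, was at 49.5 and 51.3 CPM in control hearts, against 53.7, 48.8 and 54.5 CPM in disease hearts. By edgeR's quasi-likelihood test the 4 neighbours tested were not called, with log2 changes of 0.23 for Plbd1 (adjusted p = 0.885), -0.12 for Hist4h4 (0.844), 0.09 for Wbp11 (0.728) and -0.18 for BC049715 (0.776). Gucy2c and Smco3 had too few UMIs for the test.

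The genes called lower in disease were unevenly spread over GC content, and the members are placed here by the same measure. In the first 300 transcript bases GC content was 73.0% for H2afj, 67.3% for H2afv, 67.0% for H2afx and 71.3% for H1f0. It was 65.3% for H2afz, 77.3% for H2afy, 62.3% for H3f3a and 48.0% for H3f3b. With the tested genes cut into 10 equal groups by this value, 0.688 to 1.69% of genes were called lower in groups 1 to 5, 15.1% in group 8, 21.3% in group 9 and 11.5% in group 10. Across the 7217 genes above 4 log2 CPM, Spearman's rho of GC content and log2 change was -0.486, as a description, since genes share their libraries. H2afj lay in group 10 with H2afy, H1f0 in group 9, and H2afv, H2afx and H2afz in group 8, so members that were low and members that were not shared a GC group. The part of GC content in the members' values was not tested. Of the genes called lower, 9.97% had a 50-base word in common with another gene's transcript, as described above for the members, against 12.0% of the other genes tested.

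**Figure D3:**
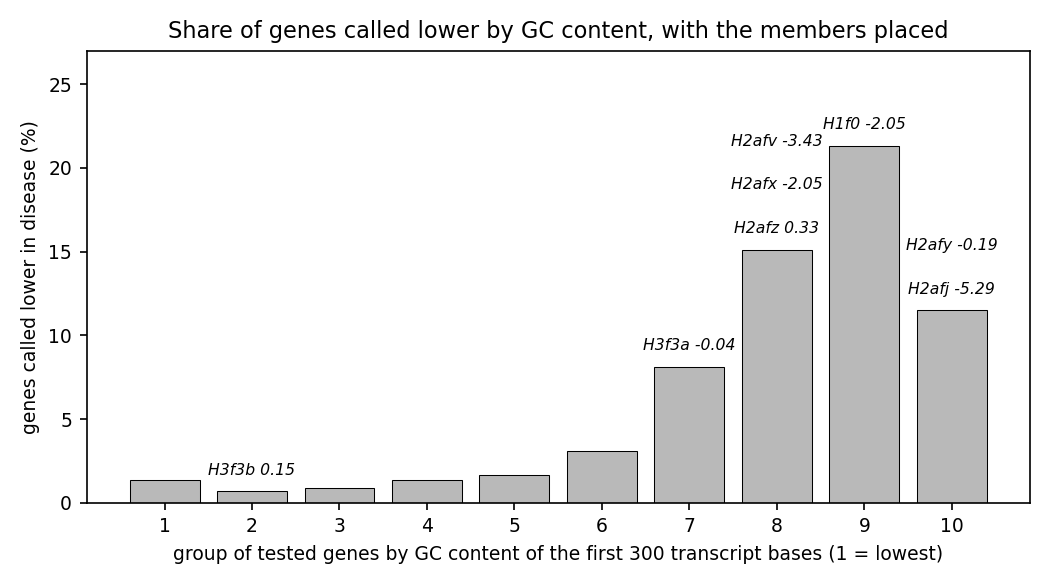
Share of genes called lower in disease (vertical axis, percent) in each of 10 equal groups of the tested genes by GC content of the first 300 transcript bases (horizontal axis, 1 is the lowest). Members are written over their group with their log2 change in all cells. The share climbs from at most 1.69% in groups 1 to 5 to 21.3% in group 9, and groups 8 and 10 each hold members with large and with small fold changes.

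The genes with values most like those of H2afj over lineages and libraries were listed as a description. The gap between the groups, on which H2afj was chosen, enters this measure, so a high value does not show a shared pattern over the lineages. Among 3944 genes tested in every lineage, log2(CPM + 1) over the 30 sums of a lineage in a library was correlated with that of H2afj by Pearson's r, with sums that share libraries. The gene closest to H2afj was Eif3f, a subunit of a translation initiation factor, with r = 0.97. It stood at 476 and 552 CPM in control hearts, against 69.9, 51.1 and 65.4 CPM in disease hearts. The next were Mvb12a (0.96), Rnaset2a (0.96), Tomm20 (0.95), Phb2 (0.95), Mrpl54, Trir, Snrpf, Tpt1 and Ube2d2a (all 0.95). Tpt1, the most abundant of them, was at 5284 and 4770 CPM in control hearts, against 649, 658 and 640 CPM in disease hearts. Of the 10, 3 were also among the 10 closest by Spearman's rho and 7 with a pseudocount of 5 CPM. Among the members H2afv came nearest (r = 0.88, rank 79), then H2afx (0.68, rank 421) and H2afy (0.38). H3f3a (0.0719), H2afz (-0.0273) and H3f3b (-0.144) were near 0, and H1f0 was not among the genes compared.

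The lineages differed in nearly every member, as they did in a large share of all genes tested. The choice of the members did not use this contrast. Each lineage was compared with the mean of the other 5 in a single edgeR quasi-likelihood fit over 12941 genes with the library as a block. T cells had 6 members higher and 1 lower, and B cells 5 higher and 1 lower. In this fit 35% and 22.5% of all genes were called higher in T and B cells, and 30.3% and 27.9% lower. Fibroblasts had 1 higher and 7 lower, endothelial cells 1 higher and 5 lower and the mural gate 1 higher and 5 lower, where 31%, 28.1% and 23.9% of all genes were called lower and 39.8%, 37.1% and 25% higher. Monocytes or macrophages had 4 higher and 2 lower (32.8% and 30.3% of all genes).

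H1f0 separated stromal and vascular cells from lymphocytes. In each library its level was highest in endothelial cells, then in the mural gate, in fibroblasts and in monocytes or macrophages, and lowest in T and B cells. T and B cells, at 0 to 9.48 CPM, did not differ in a common direction, and every other step of this order held in each of the 5 libraries. The log2 change was 2.52 in endothelial cells (SE 0.11, edgeR adjusted p = 3.46e-20), 1.74 in the mural gate (SE 0.16, edgeR adjusted p = 2.03e-11) and 1.31 in fibroblasts (SE 0.12, edgeR adjusted p = 8.81e-12). In T cells it was -2.59 (SE 0.22, edgeR adjusted p = 3.66e-12) and in B cells -2.90 (SE 0.31, edgeR adjusted p = 1.29e-09).

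H2afx and H3f3a were the members most raised in B cells. H3f3a stood at 3998, 4078, 4918, 1771 and 4900 CPM in the B cells of the 5 libraries, in the order of their numbers, and in no other lineage above 1382 CPM. Its log2 change was 2.40 (SE 0.07, edgeR adjusted p = 1.13e-25), and it was also the highest lineage within disease replicate 4, where the gene was low throughout. The ratio of H3f3b to H3f3a UMIs was between 0.770 and 0.887 in the B cells of 4 libraries and 1.94 in disease replicate 4, whereas in the other lineages it was between 1.62 and 8.16. For H2afx the log2 change was 2.05 in B cells (SE 0.13, edgeR adjusted p = 2.64e-15) and 1.54 in T cells (SE 0.10, edgeR adjusted p = 5.21e-15), and B cells were above T cells, and T cells above the other 4 lineages, in each library. Fibroblasts had the lowest H2afx level of the lineages in the 2 control libraries, 20.4 and 22.2 CPM (log2 change -1.65, SE 0.10, edgeR adjusted p = 3.79e-16).

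The H2A.Z genes followed different lineages. H2afz was highest in monocytes or macrophages in each library, at 1376, 1481, 1601, 1143 and 1840 CPM (log2 change 1.24, SE 0.07, edgeR adjusted p = 8.33e-17), followed by T cells, at 1028 to 1585 CPM. It was lowest in endothelial cells in each library, at 335 to 467 CPM (log2 change -1.47, SE 0.09, edgeR adjusted p = 2.11e-16). H2afv was lower in monocytes or macrophages (log2 change -0.94, SE 0.12, edgeR adjusted p = 3.12e-08) and higher in T cells (1.09, SE 0.12, edgeR adjusted p = 5.64e-10). The T cell value of H2afv was not the same in the control libraries: 293 CPM, the highest of the 6 lineages, in control replicate 1 and 188 CPM, the fourth, in control replicate 2.

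Control cells, in which H2afj was well counted, ranked the lineages in the same order in both libraries: T cells, monocytes or macrophages, B cells, endothelial cells, fibroblasts and the mural gate. Endothelial cells (120 and 117 CPM) and fibroblasts (118 and 110 CPM) overlapped, and the other neighbours in this order did not. Over all 5 libraries H2afj was higher in monocytes or macrophages (log2 change 0.62, SE 0.16, edgeR adjusted p = 0.00148) and lower in the mural gate (-1.19, SE 0.26, edgeR adjusted p = 0.000231), and both calls held under all alternatives. The mural value comes mostly from the controls, with 57 and 38 H2afj UMIs there and 0, 0 and 2 in the disease libraries. In disease replicate 5, on those 2 UMIs, the mural gate was above fibroblasts (3.71 against 3.55 CPM). In T cells the log2 change was 0.83 (SE 0.18, edgeR adjusted p = 0.000155), but it was 0.45 with DESeq2 (adjusted p = 0.175) and 0.51 without control replicate 1 (edgeR adjusted p = 0.0994). This value combines groups that order the lineages differently: in each of the 3 disease libraries T cells, at 1.85, 0.996 and 2.75 CPM on 1, 10 and 8 UMIs, lay below endothelial cells, fibroblasts and monocytes or macrophages. Whether the T cell difference itself differs between control and disease was not tested. In fibroblasts it was -0.43 (SE 0.17, edgeR adjusted p = 0.0205), and this call was lost with DESeq2 and when control replicate 1, control replicate 2, disease replicate 3 or disease replicate 4 was left out (values from -0.38 to -0.26).

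H2afy was highest in T cells in each library, at 72.1, 147, 55.4, 75.4 and 81.7 CPM (log2 change 1.17, SE 0.09, edgeR adjusted p = 1.02e-13). H3f3b was lowest in endothelial cells and fibroblasts in each library, at 1804 to 2098 CPM, against 2922 to 4233 CPM in the other 4 lineages. Its log2 change was -0.93 in endothelial cells (SE 0.08, edgeR adjusted p = 7.28e-12) and -0.91 in fibroblasts (SE 0.08, edgeR adjusted p = 8.43e-12).

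**Figure D4:**
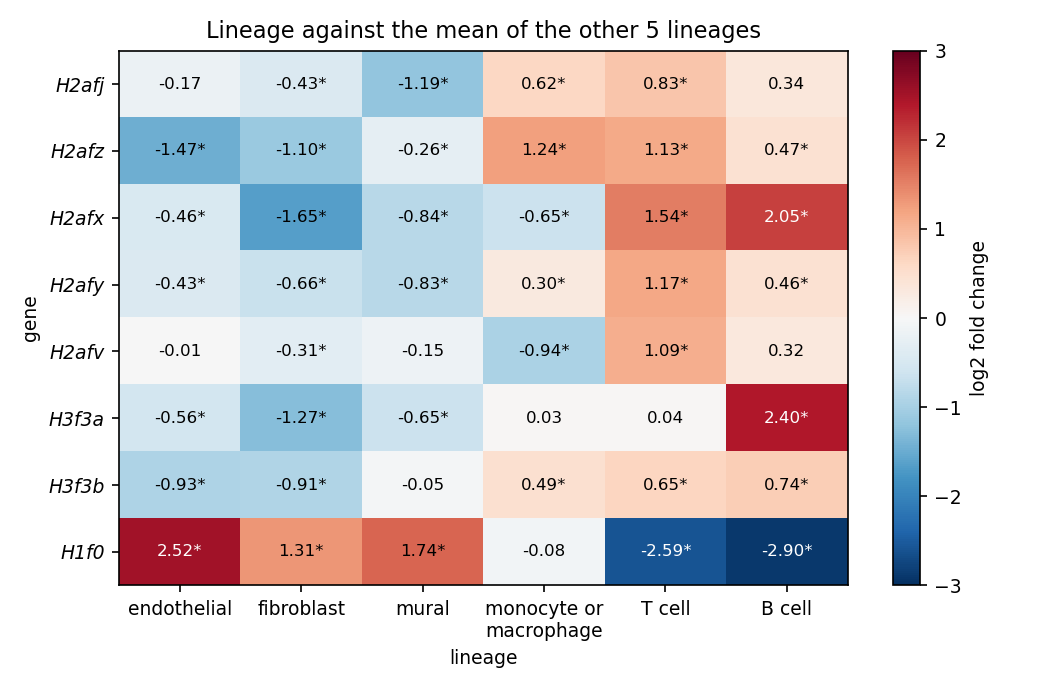
Log2 fold change of each gene (rows) in each lineage (columns) against the mean of the other 5 lineages, from the edgeR fit with the library as a block; red is higher, blue is lower, and an asterisk marks an adjusted p under 0.05. H1f0 runs from 2.52 in endothelial cells to -2.90 in B cells, and H3f3a is highest in B cells at 2.40.

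Cycling T cells showed how the members differ with cell division. T cells that held 2 or more UMIs summed over the division genes Mki67, Top2a, Birc5, Cdk1 and Ccnb2 numbered 36 in control replicate 1, 179 in disease replicate 4 and 46 in disease replicate 5, and were compared with the other T cells of the same library. Control replicate 2 had 2 such cells and disease replicate 3 had 8, and neither entered the fit. Of 8447 genes tested, 11.4% were called higher and 7.93% lower in cycling cells, and of the 6 members tested 4 were called higher and none lower (1 lower at an unadjusted p under 0.05, and 3 higher and 0 lower with DESeq2).

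H2afx had the steepest difference of the members. It was at 329 CPM in cycling and 70.8 CPM in other T cells of control replicate 1, at 14.8 and 4.36 CPM in disease replicate 4 and at 82.0 and 22.5 CPM in disease replicate 5. Its log2 change was 1.97 (SE 0.17, edgeR adjusted p = 1.01e-06). The fold was seen in libraries whose H2afx levels were far apart.

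H2afz was at 1976 and 1087 CPM in control replicate 1, at 1912 and 867 CPM in disease replicate 4 and at 2867 and 1312 CPM in disease replicate 5, cycling before other T cells (log2 change 0.98, SE 0.07, edgeR adjusted p = 2.19e-07). H2afv was at 495 and 262 CPM, 29.6 and 20.5 CPM, and 39.0 and 22.1 CPM in the same order (0.73, SE 0.13, edgeR adjusted p = 0.00146). Both H2A.Z genes thus rose in cycling cells, in 3 of 3 libraries each. The call of H2afv was lost without control replicate 1 (0.57, edgeR adjusted p = 0.108). H2afy rose by 0.55 on the log2 scale (SE 0.12, edgeR adjusted p = 0.00483), and by 0.56 with DESeq2 (adjusted p = 0.0656).

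The genes of the replacement H3 were not called. The log2 change was 0.13 for H3f3a (SE 0.08, edgeR adjusted p = 0.291) and -0.14 for H3f3b (SE 0.06, edgeR adjusted p = 0.135). Without the filter on low counts H3f3b was called lower (-0.20, edgeR adjusted p = 0.00707). H2afj had 91 UMIs in cycling T cells of control replicate 1 (229 CPM) and 651 in the others (255 CPM), and 3 and 2 UMIs in the cycling T cells of disease replicates 4 and 5. H2afj and H1f0, which had 0, 6 and 4 UMIs in the cycling cells of the 3 libraries, did not pass the filter on low counts.

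**Figure D5:**
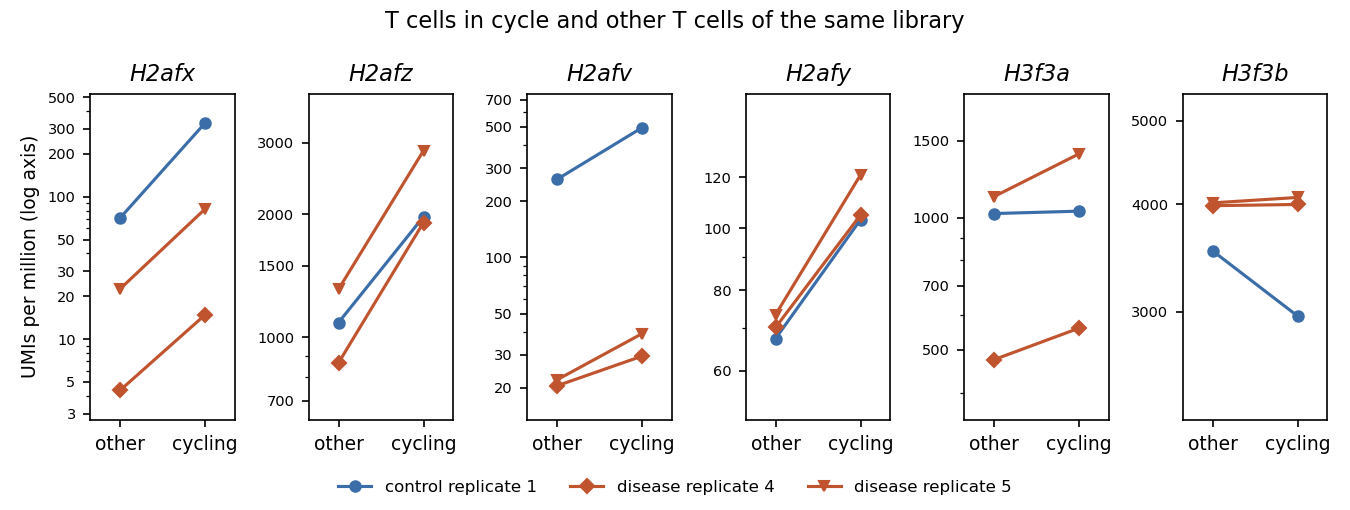
Levels of 6 members in cycling and other T cells of the 3 libraries with at least 10 cycling T cells, in CPM on log axes whose range differs between panels; lines join the cells of 1 library. H2afx, H2afz, H2afv and H2afy go up in all 3 libraries. H3f3a is also higher in all 3, by less (1036 against 1023, 561 against 475 and 1399 against 1118 CPM), and H3f3b is lower in control replicate 1 and close to level in the others.

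The replication-dependent histone genes, a list of 67 genes transcribed mainly during DNA synthesis, were mostly higher in cycling T cells. Of 26 tested, 21 were higher and none lower (0 lower at an unadjusted p under 0.05, and 18 higher and 0 lower with DESeq2), with a median log2 change of 2.77 beside -0.04 over all genes tested. Hist1h2ap, an H2A gene, rose by 6.42 (SE 0.18, edgeR adjusted p = 1.34e-11), and Hist1h1b, a linker histone gene, by 5.35 (SE 0.19, edgeR adjusted p = 9.34e-11). With 1 of the 3 libraries left out, 19 genes were called higher each time. Most mRNAs of these genes carry no poly(A) tail, and how fully the libraries counted such mRNAs was not measured.

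Chaperones and exchange complexes, which carry histones and swap variants into chromatin, had 15 of 33 members higher and none lower in cycling T cells, beside the 11.4% higher and 7.93% lower over all genes, which the shares of the next lists are also set against (14 to 16 higher with 1 library left out, 1 lower at an unadjusted p under 0.05, and 14 higher and 0 lower with DESeq2). Their median was 0.45. Asf1b, an H3 and H4 chaperone, rose by 3.87 (SE 0.18, edgeR adjusted p = 2.58e-09), and Anp32e, which removes H2A.Z from chromatin, by 1.10 (SE 0.10, edgeR adjusted p = 1.68e-06). Of the genes that act on H2A.X at DNA breaks, 4 of 12 were higher (3 to 4 with 1 library left out), among them Brca1 (4.53, SE 0.33, edgeR adjusted p = 2.96e-07). The call of Mre11a, another of the 4, was lost without control replicate 1 or disease replicate 4. Of the genes that process stem-loop histone mRNA, 3 of 5 were higher, among them Slbp, which binds the stem-loop (0.46, SE 0.10, edgeR adjusted p = 0.00418), whose call was lost without disease replicate 5, and Eri1, whose call was lost without control replicate 1. Of the senescence genes 2 of 6 were higher, Lmnb1 and Cdkn2a, and 1 was lower, Ccl2, whose call was lost without disease replicate 4. The list of other replacement histones had 1 gene tested, Cenpa, the centromere histone (0.26, SE 0.21, edgeR adjusted p = 0.437), which was called higher without disease replicate 4.

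The genes around the replacement histones were also compared between disease and control, in lists that were chosen with earlier results of these data known. Of 33 chaperones and exchange factors tested in all cells, none was higher and 1 was lower, beside 6.52% lower and 0.0374% higher over all genes tested. The 1 gene was Yeats4, a subunit of the complex that exchanges H2A.Z, at 34.6 and 35.6 CPM in the controls and 7.15, 6.79 and 6.15 CPM in the disease libraries (log2 change -2.34, SE 0.15, edgeR adjusted p = 0.00310). At an unadjusted p under 0.05 there were 1 higher and 6 lower, and with DESeq2 0 higher and 4 lower. The median of the list was 0.13, beside 0.02 over all genes tested. Hira, which deposits the replacement H3, was not called (0.42, SE 0.18, edgeR adjusted p = 0.361). Yeats4 was called lower in 6 of 6 lineages and in 5 of 5 fits of all cells without 1 library, and Dek, another H3 chaperone gene, in 5 of 6 lineages. The Dek call was kept in each fit without 1 library in endothelial cells and fibroblasts. It was lost without control replicate 1, control replicate 2 or disease replicate 5 in monocytes or macrophages and in the mural gate, and without control replicate 2 or disease replicate 5 in B cells. In endothelial cells, fibroblasts and monocytes or macrophages the Yeats4 call was kept in each fit without 1 library. It was lost without control replicate 2 in B cells, without control replicate 1 or disease replicate 5 in T cells, and without control replicate 2 or disease replicate 3 in the mural gate, where it was kept without disease replicate 4 and not tested without control replicate 1 or disease replicate 5. Over the 6 lineages 1 to 4 of the list were lower, 4 of 33 in endothelial cells and in fibroblasts, where 12.1% and 12.6% of all genes were lower.

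Of 13 genes that act on H2A.X, 3 were lower in all cells and none higher, where 6.52% of all genes tested were lower and 0.0374% higher (4 lower and 0 higher both at an unadjusted p under 0.05 and with DESeq2). Ppp4c, a catalytic subunit of the phosphatase that removes the phosphate mark from H2A.X, was at 97.2 and 92.5 CPM in control hearts, against 25.8, 26.7 and 27.5 CPM in disease hearts (log2 change -1.79, SE 0.15, edgeR adjusted p = 0.00436), and was called lower in 6 of 6 lineages. The call in all cells was lost without disease replicate 5 (edgeR adjusted p = 0.0604), as were those in T cells without disease replicate 5, in B cells without control replicate 2 and in the mural gate without any library other than disease replicate 4. The other 2 were Nbn (edgeR adjusted p = 0.0221) and Rnf8 (-1.18, edgeR adjusted p = 0.0207), each called in a single fit of all cells without 1 library, that without disease replicate 4. Nbn was also called lower in endothelial cells and in fibroblasts, in 5 of 5 such fits each. Mdc1, which binds the mark, was not called (0.12, SE 0.14, edgeR adjusted p = 0.69).

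Of 57 replication-dependent histone genes tested in all cells, 14 were lower and none higher, beside the same 6.52% and 0.0374% of all genes (22 lower and 1 higher at an unadjusted p under 0.05, 18 lower and 0 higher with DESeq2), with a median log2 change of -0.55. Hist1h3e was at 20.8 and 23.3 CPM in control hearts, against 0.643, 0.414 and 0.636 CPM in disease hearts (-5.26, SE 0.21, edgeR adjusted p = 0.00296), and of the 14 it alone was called in all 5 fits without 1 library. The number called lower ranged from 1 to 14 over these fits (3 without control replicate 1, 2 without control replicate 2 and 1 without disease replicate 5). In endothelial cells 15 of 46 were lower, beside 12.1% of all genes, and 8 to 16 without 1 library (9 without control replicate 1 and 8 without control replicate 2). There Hist1h1c, Hist1h2ac, Hist1h3a, Hist1h3d, Hist1h3e, Hist1h3f, Hist2h2aa2 and Hist2h3b were each called in 5 of 5 such fits. In fibroblasts 11 of 38 were lower, beside 12.6% of all genes, and 3 to 13 without 1 library (4 without control replicate 1, 3 without control replicate 2 and 3 without disease replicate 5), with Hist1h3e and Hist1h3f called in 5 of 5. Monocytes or macrophages had 7 of 32 lower, beside 6.7% of all genes, and 1 to 12 without 1 library (1 without control replicate 1, and 2 without control replicate 2 or disease replicate 5). The mural gate had 2 of 6 lower, beside 7.84%, and 0 to 2 without 1 library (0 without control replicate 1, and 1 without control replicate 2 or disease replicate 5). In T cells 2 genes of this list were called higher, Hist1h1b and Hist2h2bb, and 5 of 31 lower, where 5.19% of all genes were lower and 4 of 9671 genes higher, and the higher calls were lost in 5 and 4 of the 5 fits without 1 library. The number called lower in T cells was 4 without control replicate 2 or disease replicate 3, and 0 without control replicate 1, disease replicate 4 or disease replicate 5. How fully mRNAs without a poly(A) tail were counted in each library was not measured, and its part in these values was not tested. The part of cycling cells was not tested either. Cycling cells made up 6.77 and 2.50% of control T cells, against 6.50, 8.02 and 8.24% of disease T cells.

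Senescence genes gave no call in all cells, with 0 of 11 higher and 0 lower by edgeR's adjusted p and a median of 0.20, and likewise 0 and 0 at an unadjusted p under 0.05 and with DESeq2. Cdkn1a (0.25, SE 0.20, edgeR adjusted p = 0.557) and Cdkn2a (0.53, SE 0.28, edgeR adjusted p = 0.444), the cell cycle inhibitors that mark senescence, were among those not called. Within lineages Lmnb1, a nuclear lamina gene, was called lower in endothelial cells (in 5 of 5 fits without 1 library, with log2 changes from -1.19 to -1.07) and in fibroblasts (in 0 of 5 such fits). Beside 6.52% lower over all genes, genes of stem-loop mRNA processing had 1 of 7 lower, Eri1 (-1.02), called in a single fit without 1 library, that without disease replicate 4. Of 4 other replacement histone genes tested, 1 was lower beside the same share: H2afy2, which encodes macroH2A2, at 11.6 and 11.8 CPM in control hearts, against 2.73, 1.66 and 2.97 CPM in disease hearts (-2.23, SE 0.25, edgeR adjusted p = 0.00900), a call lost without control replicate 1, control replicate 2 or disease replicate 5. In endothelial cells and fibroblasts, the 2 lineages where it was tested, H2afy2 was called lower in 5 of 5 fits without 1 library. Cenpa was called lower in endothelial cells, in 5 of 5 such fits, and in monocytes or macrophages, in 2 of 5, where the call was lost without control replicate 1, control replicate 2 or disease replicate 5. Eri1 was called lower in 4 of the 5 lineages where it was tested: T cells, endothelial cells, fibroblasts and monocytes or macrophages. In each of them the Eri1 call was lost in some of the fits without 1 library.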

How the data were processed

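Single-cell RNA-seq of sorted cardiac cells gave 5 libraries. The deposited matrices hold raw UMI counts, and per the file headers they were written by Cell Ranger 3.1.0; the submitters' processing notes also list Seurat 3 and the build mm10. Which mice entered which library, preparation batches and alignment settings are not given in the sources used here.

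Barcodes were kept from 500 UMIs and 200 genes upward if mitochondrial genes gave no more than 10% of the UMIs. Doublets were taken as the highest Scrublet scores, 0.8% per 1000 barcodes (2474 barcodes), because the caller's own threshold marked 5 cells (0.0895%) in control replicate 2; this was decided after seeing that number. A cell joined a lineage with at least 3 UMIs of that lineage's markers and 3 times those of the next lineage. Counts were summed per library, or per library and lineage, and tested with edgeR 4.0.16 (TMM scaling, filterByExpr, quasi-likelihood test, Benjamini-Hochberg over all genes tested, threshold 0.05) in R 4.3.3. The fits were tested on simulated counts first. CPM values are a gene's UMIs per 1000000 UMIs of the same sum.

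Total UMIs per library ranged from 24991704 to 55053988. Alternatives were DESeq2 1.42.0, no filter on low counts, 25% mitochondrial UMIs, a looser lineage gate, a stricter cycling rule and leaving out each library. The genes named are all 8 members, the genes of the lists with examples in both directions, the neighbours of H2afj and the 10 genes with the most similar pattern. Members and lists were chosen with earlier results of these data known. No column of the tables was left without a sample.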

Additional observations from a re-analysis of the deposited data

How the results depend on the processing

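Of 432 log2 fold changes of members between lineages under an alternative, 415 kept their direction and side of the threshold, 15 lost the call, 1 gained it and 1 turned. The one that turned was H3f3b in the mural gate, at 0.15 with DESeq2 and -0.05 otherwise, and the cause was not tested. The numbers of genes called between lineages stayed within 1.5 times in 54 of 54 alternatives. In cycling T cells 1632 genes were called, 829 with DESeq2 and 1035 to 1558 with 1 library left out. Between disease and control, 1051 genes were called in all cells, 1737 with DESeq2, and 123 to 1265 with 1 library left out. The numbers moved in the lineages too. In endothelial cells they were 1544, and 787 to 1505 with 1 library left out, and in fibroblasts 1739, and 796 to 1851. In monocytes or macrophages they were 753, 1342 without the filter on low counts, and 222 to 1090 with 1 library left out. In T cells they were 506, 1102 without the filter, and 1 to 414 with 1 library left out, the 1 being without disease replicate 5. In B cells they were 420, 946 without the filter, and 41 to 405 with 1 library left out. In the mural gate they were 529, 323 with DESeq2, 841 without the filter, and 229 to 601 with 1 library left out. Without 1 control library the remaining one is assumed to vary like the disease libraries. In all cells the log2 fold change of H2afz was 0.60 without control replicate 1 and 0.10 without control replicate 2, and that of H3f3b -0.04 without disease replicate 4. With 500 UMIs per cell in place of 1000, an H2afj UMI was seen in 6.01 and 5.53% of control cells and in 0.252, 0.142 and 0.277% of disease cells. H2afj values in T, B and mural cells of the disease libraries are imprecise, since they rest on 0 to 10 H2afj UMIs each. The sums themselves were not all small. T cells of disease replicate 4 held 10037621 UMIs of all genes, against 2953879 and 361102 in the control libraries. No paired analysis was possible, because the mice and the preparation batch of each library are not given. The numbers 1 to 5 only count the libraries and hold no pairing.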

Other observations

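The lists around the replacement histones also differed between the lineages, each lineage being set against the mean of the other 5 by edgeR's quasi-likelihood test. Over all genes tested, 35% were called higher and 30.3% lower in T cells, 22.5% and 27.9% in B cells, 37.1% and 28.1% in endothelial cells, 39.8% and 31% in fibroblasts, 32.8% and 30.3% in monocytes or macrophages, and 25% and 23.9% in the mural gate. Of the 33 chaperones and exchange factors, 20 were higher and 3 lower in T cells, and 15 higher and 1 lower in B cells. In endothelial cells 5 were higher and 16 lower, in fibroblasts 4 and 16, in monocytes or macrophages 8 and 15, and in the mural gate 1 and 10.

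Of 38 replication-dependent histone genes, 26 were higher and 2 lower in endothelial cells, with a median log2 fold change of 1.02 beside 0.06 over all genes tested. In T cells 20 were higher and 7 lower (median 0.82 beside -0.03), whereas in B cells 2 were higher and 10 lower (median -0.71 beside -0.28). In fibroblasts 4 were higher and 15 lower (median -0.41 beside 0.06). Monocytes or macrophages had 10 higher and 8 lower (median 0.29 beside -0.04), and the mural gate 6 and 4 (median -0.21 beside -0.10). For these genes too, the counting of mRNAs without a poly(A) tail was not measured. Of the 13 genes that act on H2A.X, 9 were higher and 1 lower in T cells and 6 higher and 0 lower in B cells (6 and 0 at an unadjusted p under 0.05, 5 and 0 with DESeq2). In the mural gate 5 were lower and none higher (7 lower and 0 higher at an unadjusted p under 0.05, 3 and 0 with DESeq2). Monocytes or macrophages had 5 higher and 4 lower, and endothelial cells and fibroblasts had 2 higher and 2 lower each.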
